A study of Mus musculus with 12 samples.

Results

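LSK cells, the lineage-negative, Sca-1-positive, Kit-positive fraction of mouse bone marrow that holds blood-forming stem cells and early progenitors, were compared between a group targeted for both β-catenin and Hoxa9 (dKO) and a group targeted for Hoxa9 alone (HOXA9_KO). The comparison addresses what removal of β-catenin adds when Hoxa9 is already low, because the change at Hoxa9 is common to both groups. Its members were the 4 libraries of these groups (dKO S6 and S7, HOXA9_KO S4 and S5) out of 12 in the series, chosen by their labels, and all 51155 autosomal genes of the 55471 in the count table. Of these, 16503 autosomal genes had enough reads to be tested, out of 17063 genes in all. Libraries targeted for β-catenin alone (Bcat_KO S3 and S4) and wild-type libraries (WT S1 and S2) served for the same step with Hoxa9 present. The remaining 4 libraries, PRMT1_KO (targeted for Prmt1) and its own wild type WT_PRMT1, entered the shared estimate of spread and give 1 pair of summed levels below.

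Every mouse was a primary transplant recipient, and the cells were taken 6 weeks after tamoxifen, WT included. The sample titles write KO, whereas the genotype entry reads knockdown for each targeted gene, and the titles' names are kept here. Not given in the sources used here are the Cre driver, the alleles, age, sex, the number of animals and how donor cells were told from those of the host. Nor is it stated whether replicate libraries derive from different mice. The p-values therefore measure the spread between replicate libraries, pooled over the 6 groups of the series, and this spread may be technical. Depth was 26755289 and 25651223 counts in dKO and 17569709 and 24162780 in HOXA9_KO. It was 29943990 and 40553891 counts in Bcat_KO and 18893203 and 21234828 in WT. Levels below are CPM (counts scaled to a common library size) after TMM scaling, listed as dKO S6, dKO S7, then HOXA9_KO S4, HOXA9_KO S5, and changes are log2 fold changes of dKO over HOXA9_KO ± SE with 2 libraries per group. A gene was called when its Benjamini-Hochberg adjusted p from edgeR's quasi-likelihood test was under 0.05, and every adjusted p below is from that test unless another is named.

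β-Catenin, encoded by Ctnnb1, links cadherins to the cytoskeleton and, when Wnt signals stop its destruction by the Axin, APC and GSK3 complex, enters the nucleus as a partner of TCF/LEF factors. Hoxa9 is a homeobox transcription factor that acts with Meis partners, is high in stem cells and early progenitors, and is needed for normal lymphoid and myeloid progenitor output. Cells preparing to divide switch on genes of the mitotic spindle, kinetochore and mitotic kinases late in the cycle, through promoters bound by the MuvB complex with B-Myb and FoxM1, whereas genes of DNA synthesis are switched on earlier through E2F factors.

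Ctnnb1 (ENSMUSG00000006932, GRCm38 chr9:120929216-120960507, plus strand) stood at 227 and 235 CPM in dKO, against 363 and 349 CPM in HOXA9_KO. Both dKO libraries were below both HOXA9_KO libraries, and Ctnnb1 fell by 0.63 ± 0.07 on the log2 scale (adjusted p = 0.00672), to 0.648 of its HOXA9_KO level. About 231 CPM of Ctnnb1 RNA thus remained on average in dKO. The table counts whole genes, and whether these reads came from an intact transcript or from one lacking deleted exons was not tested. Ctnnb1 was at 276 and 267 CPM in Bcat_KO, against 315 and 342 CPM in WT. The step at Ctnnb1 was larger by 0.35 in the Hoxa9-targeted pair, a difference that did not pass the threshold (adjusted p = 0.062). Hoxa9 (ENSMUSG00000038227, chr6:52223100-52231089, minus strand) was at 9.21 and 8.92 CPM in dKO and at 12.2 and 8.36 CPM in HOXA9_KO, ranges that overlap (-0.17 ± 0.17, adjusted p = 0.768). In WT it stood at 58.7 and 59.9 CPM.

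The gate genes were present in all 4 libraries. Kit, the stem cell factor receptor, had 359 and 414 CPM in dKO and 461 and 354 CPM in HOXA9_KO. Ly6a, which encodes Sca-1, had 199 and 155 CPM in dKO and 135 and 154 CPM in HOXA9_KO, and neither gene was called. Markers of the lineages that the gate removes were not all at 0. Cd3e, a T cell receptor chain, had 0.387 and 0.152 CPM in dKO and no count in HOXA9_KO. Itgam, the CD11b chain of myeloid cells, had 21.8 and 12.7 CPM in dKO and 6.06 and 11.2 CPM in HOXA9_KO. In sorted bulk RNA, fewer cells of a type and less RNA per cell cannot be told apart, which holds for every level given here.

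More genes were lower than higher in dKO. In dKO against HOXA9_KO, 41 autosomal genes were called higher (0.248% of those tested) and 167 lower (1.01%), 208 in all (1.26%). At an unadjusted p under 0.05 there were 2066. The median change over all tested genes was 0.01. Changes were mostly moderate, since 19 of the 41 higher and 59 of the 167 lower genes reached a log2 size of 1, and the median sizes were 0.91 and 0.77. Both dKO libraries lay above both HOXA9_KO libraries in 3383 tested genes (20.5%) and below them in 3429 (20.8%). All 208 called genes were among these. The gene lists described below were chosen with earlier results of these data known and held 9 of the 41 higher and 84 of the 167 lower genes, 35 of these 84 in the lists for mitosis.

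The number of calls depended on which libraries entered the fit. It was 8 in a fit of the 8 libraries of dKO, HOXA9_KO, Bcat_KO and WT, 0 in a fit of the 4 libraries compared (1424 genes at an unadjusted p under 0.05, and 604 calls with DESeq2 on all 12), 64 without HOXA9_KO S5 and 355 without dKO S6. Without dKO S7 it was 108, and with a single Bcat_KO or WT library left out between 107 and 114. Of 79 called genes named by the rule given under processing, 19 kept their call in each of the 8 fits that left out a library of these 4 groups: Akap12, Arpp21, Bcat1, Bub1b, Ccl4, Cenpf, Ces2g, Ckap2, Cnn3, Ctnnb1, Dntt, Foxm1, Hspa1a, Hspa1b, Incenp, Kif11, Myl10, Pdgfrb and Rag1. The call was lost without HOXA9_KO S5 for 58 of the 79, without dKO S7 for 44, without HOXA9_KO S4 for 24 and without dKO S6 for 14, and none of the 79 changed sign. Each of the other named calls was lost in at least 1 of these fits. Every such fit also has fewer libraries from which to estimate the spread.

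**Figure D1:**
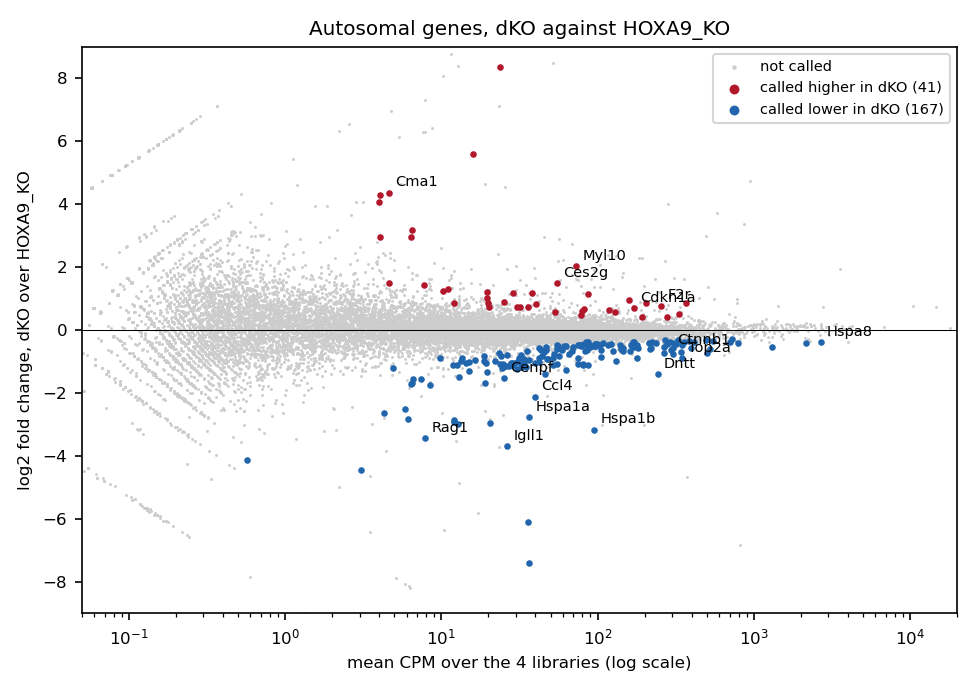
Each point is an autosomal gene, with its mean CPM over the 4 libraries (log scale) on the horizontal axis and its log2 change, dKO over HOXA9_KO, on the vertical axis; called genes are coloured by direction and 188 genes lie outside the axes. The 41 genes called higher and the 167 called lower spread over low and high levels; Hspa1b and Myl10 stand out at their level, at log2 changes of -3.16 and 2.04.

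Genes of mitosis were lower in dKO as a group. Of 76 tested autosomal members of the lists of mitotic kinases, cyclins and anaphase genes (32) and of spindle and kinetochore genes (44), 35 fell and none rose, against 1.01% of all tested genes called lower. At an unadjusted p under 0.05, 71 were lower and 0 higher, and DESeq2 called 58 lower and 0 higher. The median change was -0.86, against 0.01 over all tested genes, and 75 of the 76 were below 0. In 73 of the 76, both dKO libraries lay below both HOXA9_KO libraries, against 20.8% of all tested genes. By list, 12 of 32 kinases and cyclins fell (median -0.82) and 23 of 44 spindle and kinetochore genes fell (median -0.87). Their summed level was 2625 and 1846 CPM in dKO, against 3614 and 4287 CPM in HOXA9_KO. Both dKO sums were below both HOXA9_KO sums, and libraries of a group also differed: dKO S7 was below dKO S6 in 73 of 76 genes, with a median log2 ratio of -0.52, and HOXA9_KO S4 below HOXA9_KO S5 in 66 (median -0.26). The count of members lower was 8 without HOXA9_KO S5, 14 without dKO S7, 18 or 19 with a single Bcat_KO or WT library left out, 58 without dKO S6 and 0 in the fits of 8 or 4 libraries, while the median stayed between -1.14 and -0.63 in all of these.

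The promoters of these genes are shown because late cell cycle genes are known for paired elements close to the start site, the CHR (TTTGAA or TTTAAA) and the CCAAT box. The 4 windows are from RefSeq sequence on GRCm38.p6, run from 170 bases before to 30 after the start in the direction of transcription, and carry CHR forms and CCAAT boxes of either strand in capitals. Cenpf, Kif11 and Ckap2 are called spindle genes, and Hmmr, a called gene of the same list that binds hyaluronan and spindle microtubules, was chosen after its promoter was seen.
Cenpf (chr1:189688057-189688256, minus strand): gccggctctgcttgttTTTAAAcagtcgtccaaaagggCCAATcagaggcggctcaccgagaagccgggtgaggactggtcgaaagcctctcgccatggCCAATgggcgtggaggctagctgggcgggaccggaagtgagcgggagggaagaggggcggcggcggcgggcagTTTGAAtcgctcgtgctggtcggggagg
Kif11 (chr19:37376212-37376411, plus strand): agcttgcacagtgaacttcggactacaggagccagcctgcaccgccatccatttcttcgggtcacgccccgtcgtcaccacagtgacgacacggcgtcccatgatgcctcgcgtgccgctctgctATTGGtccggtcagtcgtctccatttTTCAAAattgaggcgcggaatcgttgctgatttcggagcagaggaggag
Ckap2 (chr8:22185790-22185989, minus strand): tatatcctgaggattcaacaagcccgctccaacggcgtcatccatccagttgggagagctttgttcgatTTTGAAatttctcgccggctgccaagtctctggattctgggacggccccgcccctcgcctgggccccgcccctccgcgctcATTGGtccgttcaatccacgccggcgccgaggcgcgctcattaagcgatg
Hmmr (chr11:40733408-40733607, minus strand): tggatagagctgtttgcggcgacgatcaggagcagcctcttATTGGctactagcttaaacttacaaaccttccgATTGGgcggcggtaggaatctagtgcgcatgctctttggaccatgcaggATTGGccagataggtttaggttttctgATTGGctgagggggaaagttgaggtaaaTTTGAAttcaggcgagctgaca

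Motifs were searched on both strands in 300-base windows, 250 before to 50 after the start, which RefSeq gave for 28 of the 35 mitosis genes called lower (80.0%) and for 34 of the 41 not called (82.9%). The CHR form TTTGAA was in 21 of 28 called (75%), in 19 of 34 not called (55.9%) and in 18.1% of all 27025 windows. The CHR form TTTAAA was in 4 of the 28 called (14.3%), 10 of the 34 not called (29.4%) and 13.2% of all windows. At least 1 of the 2 CHR forms was in 21 of 28 called (75%), 23 of 34 not called (67.6%) and 27.8% of all windows. CCAAT was in 23 of 28 called (82.1%), 20 of 34 not called (58.8%) and 37.9% of all windows. Either CHR form together with CCAAT was in 19 called (67.9%), 15 not called (44.1%) and 10.9% of all windows. The TCF/LEF letters CTTTGAT, which overlap the CHR in their TTTGA, were in 1 of the 28 (3.57%) and in 3.72% of all windows. The E2F letters TTTCCCGC were in 0 of the 28 and 1.11% of all, TTTGGCGC in 1 (3.57%) and 0.537% of all, and the E-box CACGTG in 2 (7.14%) and 7.24% of all. These are matches of letters in a window and were not tested. For all genes called lower, 133 of 167 had a window (79.6%), and for those called higher 29 of 41 (70.7%), both under 80%, so no motif share is given for them.

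Foxm1, the forkhead factor that drives late cell cycle transcription, had 31.8 and 24.3 CPM in dKO, against 55.7 and 58.2 CPM in HOXA9_KO. Both dKO libraries were below both HOXA9_KO libraries, and Foxm1 fell by 1.02 ± 0.13 (adjusted p = 0.00687). Bub1b, the BubR1 component of the spindle checkpoint, had 63.8 and 46.2 CPM in dKO, against 114 and 122 CPM in HOXA9_KO, and fell by 1.10 ± 0.14 (adjusted p = 0.00812). Cdk1, the kinase that starts mitosis, had 36.0 and 27.8 CPM in dKO, against 52.4 and 59.2 CPM in HOXA9_KO, and fell by 0.81 ± 0.13 (adjusted p = 0.0196). Cdc25b, a phosphatase that activates Cdk1, had 25.4 and 17.7 CPM in dKO, against 40.1 and 47.9 CPM in HOXA9_KO, and fell by 1.03 ± 0.17 (adjusted p = 0.0192). The groups did not overlap for any of these, and the Cdk1 and Cdc25b calls were lost without HOXA9_KO S5 or without dKO S7.

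Among spindle genes, Cenpf, a large kinetochore protein of late cell cycle cells, had 15.6 and 10.3 CPM in dKO, against 34.5 and 40.2 CPM in HOXA9_KO. It fell by 1.53 ± 0.19 (adjusted p = 0.00687). Kif11, the kinesin that pushes spindle poles apart, had 59.6 and 44.8 CPM in dKO, against 98.7 and 119 CPM in HOXA9_KO, and fell by 1.06 ± 0.14 (adjusted p = 0.00812). Incenp, the scaffold of the Aurora B complex, had 58.8 and 47.1 CPM in dKO, against 88.8 and 105 CPM in HOXA9_KO, and fell by 0.87 ± 0.11 (adjusted p = 0.00812). Ckap2, a spindle microtubule protein, had 22 and 18.6 CPM in dKO, against 39.3 and 41.9 CPM in HOXA9_KO, and fell by 1.00 ± 0.13 (adjusted p = 0.00812). In each of these the dKO S7 level was the lowest of the 4. Hmmr had 20.5 and 15.3 CPM in dKO, against 36.2 and 39.5 CPM in HOXA9_KO, and was also called. Some central members missed the threshold and are given here after their values were seen. Cyclin B1 (Ccnb1) had 36.1 and 17.5 CPM in dKO and 54.3 and 65.1 CPM in HOXA9_KO (adjusted p = 0.0608). Plk1, the Polo kinase, had 26.1 and 12.9 CPM in dKO and 35.1 and 53.3 CPM in HOXA9_KO, also with an adjusted p above 0.05. For both, dKO S6 stood nearer to HOXA9_KO S4 than to dKO S7.

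**Figure D2:**
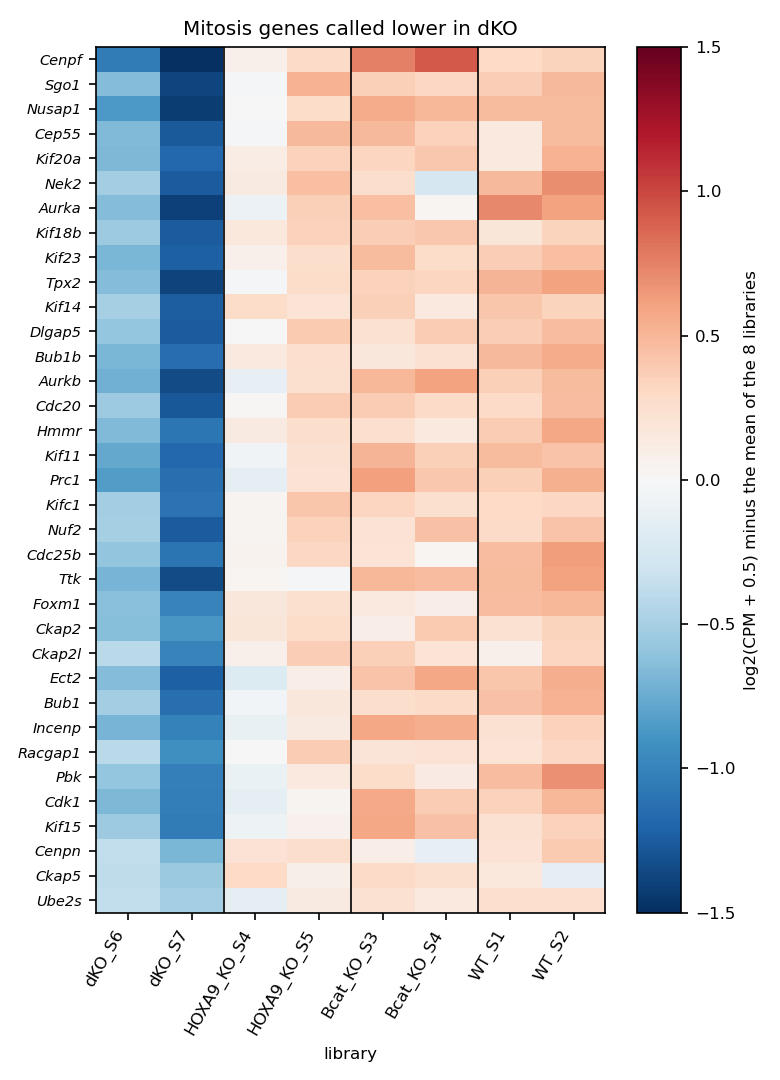
Rows are the 35 mitosis genes called lower, columns are the dKO, HOXA9_KO, Bcat_KO and WT libraries, and colour is log2(CPM + 0.5) minus the gene's mean over the 8 libraries, blue below it and red above it. Both dKO columns are blue in all 35 rows, S7 darker than S6, and the other 6 columns are near the mean or above it.

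Genes of DNA synthesis had a smaller median change. Of 84 tested members of the origin licensing, replisome and deoxynucleotide supply lists, 8 fell (9.52%, against 1.01% of all tested genes) and none rose. At an unadjusted p under 0.05, 42 were lower and 2 higher, and DESeq2 called 18 lower and 0 higher. The median change was -0.27. In 54 of the 84 both dKO libraries lay below both HOXA9_KO libraries, against 20.8% of all tested genes. The summed level of the 84 was 9067 and 8382 CPM in dKO, against 9975 and 10408 CPM in HOXA9_KO, groups that do not overlap. Pcna, the clamp that holds polymerases on DNA, had 376 and 346 CPM in dKO, against 469 and 461 CPM in HOXA9_KO, and fell by 0.37 ± 0.07 (adjusted p = 0.0302). Pole, the leading-strand polymerase, had 71.3 and 76.0 CPM in dKO, against 95.1 and 108 CPM in HOXA9_KO, and fell by 0.46 ± 0.09 (adjusted p = 0.0361). For Pcna and Pole the gap between groups was wider than the gap within either group.

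Of 19 origin licensing genes 1 fell (median -0.29): Mcmbp, a partner of the MCM helicase subunits, with 67.1 and 62.1 CPM in dKO, against 85.8 and 95.0 CPM in HOXA9_KO (-0.48, adjusted p = 0.0318). The helicase subunits themselves were not called. Mcm2, named after its values were seen, had 293 and 266 CPM in dKO and 322 and 332 CPM in HOXA9_KO (-0.23 ± 0.07, adjusted p = 0.204). In the replisome list 5 of 40 fell (median -0.29): Pcna, Pole, Pold1 (the lagging-strand polymerase), Chaf1a (histone loading behind the fork) and Cdc7 (the kinase that fires origins). In the deoxynucleotide list 2 of 25 fell (median -0.13). Rrm1, the large subunit of ribonucleotide reductase, had 286 and 250 CPM in dKO, against 361 and 369 CPM in HOXA9_KO (-0.45, adjusted p = 0.039). Dck, which salvages deoxycytidine, had 55.2 and 50.6 CPM in dKO, against 73.4 and 93.5 CPM in HOXA9_KO (-0.66, adjusted p = 0.033). Of these 8 calls, the 7 other than Cdc7 were each followed through the fits that left out a library, and none was kept in every one.

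Of 22 cohesin and condensin genes, which shape chromosomes for division, 6 fell (27.3%, against 1.01% of all tested genes) and the other 16 were not called, with a median of -0.35 over the list. Top2a, the topoisomerase that untangles sister chromatids, had 285 and 200 CPM in dKO, against 433 and 467 CPM in HOXA9_KO, and fell by 0.89 ± 0.14 (adjusted p = 0.0153), a call lost without HOXA9_KO S5 (0.0624). Cdca5, or sororin, which locks cohesin on replicated DNA, had 38.2 and 27.8 CPM in dKO, against 58.9 and 65.7 CPM in HOXA9_KO, and fell by 0.92 ± 0.14 (adjusted p = 0.0148). The condensin subunits Ncaph and Ncapd2 fell by 0.93 ± 0.15 (adjusted p = 0.0196) and by 0.71 ± 0.12 (adjusted p = 0.0202), and Smc2 and Esco2 were called too. In all of these the dKO libraries were below both HOXA9_KO libraries.

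Of 49 genes of homologous recombination, the Fanconi pathway and the checkpoint, 2 fell (4.08%, against 1.01% of all tested genes), with a median of -0.35 and 43 of the 49 below 0. At an unadjusted p under 0.05, 22 of them were lower and 0 higher, and DESeq2 called 6 lower and 0 higher. H2afx, the histone variant that marks broken DNA, had 140 and 112 CPM in dKO, against 201 and 266 CPM in HOXA9_KO (-0.89 ± 0.14, adjusted p = 0.0182). Parp1, which fell, was the call among 38 excision, mismatch and end-joining genes (2.63%, median -0.16). Of 36 chromatin writers and erasers 3 fell (8.33%, median -0.07): the maintenance DNA methyltransferase Dnmt1 with 247 and 227 CPM in dKO, against 326 and 312 CPM in HOXA9_KO (-0.43 ± 0.08, adjusted p = 0.0293), its partner Uhrf1 and the Polycomb methyltransferase Ezh2. Of 42 replication-dependent histone genes edgeR called none in either direction (4 lower and 0 higher at an unadjusted p under 0.05, 0 with DESeq2 and with limma-voom). Their median was -0.65, with 35 below 0. Splicing factors Srsf10 and Srsf7 were 2 calls of 34 (5.88%), both lower.

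Cdkn1a, the p21 inhibitor of cyclin-dependent kinases and a p53 target, had 201 and 220 CPM in dKO, against 140 and 119 CPM in HOXA9_KO, and rose by 0.70 ± 0.12 (adjusted p = 0.0289). The groups did not overlap, and the call was lost without HOXA9_KO S5 or dKO S7. Cdkn1a was the only call among 29 tested genes of the p53 list (median 0.08) and the only call among 31 G1 cyclin, kinase and inhibitor genes (median -0.15). Mdm2, another p53 target named after its values were seen, had 45.5 and 48.2 CPM in dKO and 52.3 and 47.6 CPM in HOXA9_KO. Myb, a transcription factor of cycling progenitors, had 183 and 162 CPM in dKO, against 246 and 276 CPM in HOXA9_KO, and fell by 0.59 ± 0.09 (adjusted p = 0.0148). Mxd3, a Max partner of the Myc network, had 3.33 and 2.85 CPM in dKO, against 7.97 and 11.7 CPM in HOXA9_KO, and fell by 1.68 ± 0.26 (adjusted p = 0.0165). Myc itself (adjusted p = 0.858) and Mybl2, the B-Myb gene (adjusted p = 0.30), were not called.

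**Figure D3:**
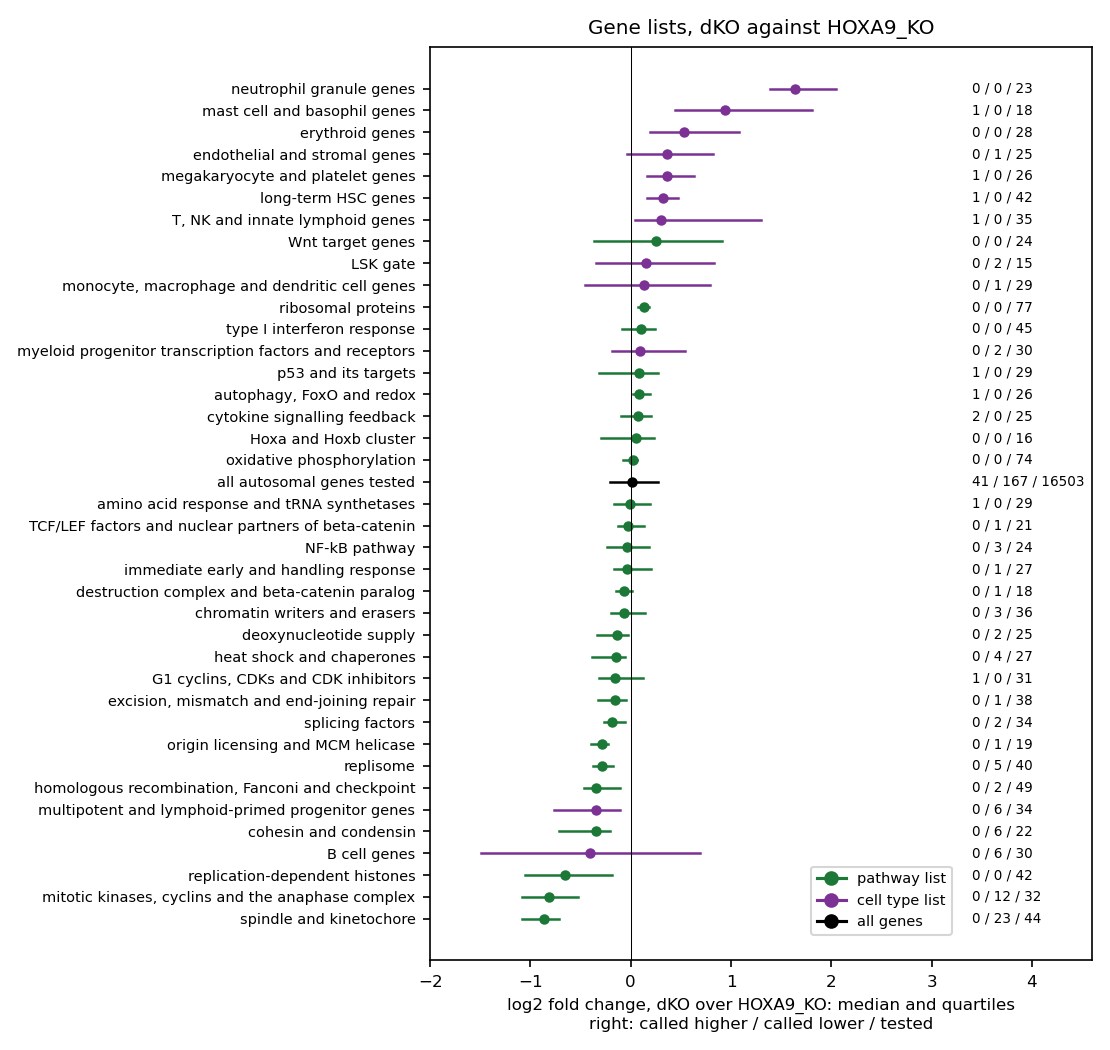
Gene lists run down the page, with the median (point) and the quartiles (bar) of the log2 change, dKO over HOXA9_KO, on the horizontal axis and the number called higher, called lower and tested at the side. The mitosis lists stand at -0.82 and -0.87 with 12 and 23 members called lower, and the neutrophil list stands at 1.63 with 0 called.

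Several genes of early lymphoid and B cell progenitors were lower. The lists of multipotent and lymphoid-primed progenitor genes (34) and of B cell genes (30) share members and held 62 tested genes. Of these, 12 fell (19.4%, against 1.01% of all tested genes called lower) and none rose. At an unadjusted p under 0.05, 26 were lower and 4 higher, and DESeq2 called 18 lower and 0 higher. The median was -0.35 in the first list and -0.40 in the second, and 45 of the 62 were below 0. In 27 both dKO libraries lay below both HOXA9_KO libraries (against 20.8% of all tested genes), and in 5 both lay above (against 20.5%). Libraries of a group also differed. In the B cell list dKO S7 was below dKO S6 in 27 of 30 genes (median log2 ratio -1.16). HOXA9_KO S4 was below HOXA9_KO S5 in 26 of them (median -0.68). In the other list these counts were 29 and 27 of 34 (medians -0.64 and -0.27). The median change of the 62 was -0.08 without HOXA9_KO S5 and -0.85 without dKO S6. The 12 calls became 5 without HOXA9_KO S5, 23 without dKO S6, 1 in the fit of 8 libraries and 0 in that of 4. Dntt, the polymerase that adds bases at antigen receptor joints and marks lymphoid priming, had 174 and 94.7 CPM in dKO, against 353 and 349 CPM in HOXA9_KO, and fell by 1.39 ± 0.21 (adjusted p = 0.0148). In WT it stood at 1381 and 1232 CPM, above all 4 of these libraries. Rag1, a subunit of the antigen receptor recombinase, had 1.86 and 0.835 CPM in dKO, against 10.9 and 18.1 CPM in HOXA9_KO, and fell by 3.43 ± 0.52 (adjusted p = 0.0153). Arpp21, a gene high in lymphoid-primed progenitors, had 2.05 and 1.44 CPM in dKO, against 9.23 and 10.7 CPM in HOXA9_KO, and fell by 2.51 ± 0.24 (adjusted p = 0.00178). Cnn3, a calponin, had 14.0 and 8.50 CPM in dKO, against 26.3 and 29.99 CPM in HOXA9_KO, and fell by 1.32 ± 0.19 (adjusted p = 0.0134). For each of these genes dKO S7 was the lowest of the 4 libraries.

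The B cell genes called were transcription factors and receptor parts of the early B lineage. Pax5, the factor that commits cells to the B lineage, had 4.49 and 1.22 CPM in dKO, against 15.2 and 27.4 CPM in HOXA9_KO, and fell by 2.90 ± 0.46 (adjusted p = 0.0175). Igll1, a surrogate light chain, had 6.81 and 0.911 CPM in dKO, against 28.2 and 70.1 CPM in HOXA9_KO, and fell by 3.68 ± 0.64 (adjusted p = 0.0262). Vpreb3 fell by 2.87 ± 0.51 (adjusted p = 0.0278), Vpreb1 by 2.95 ± 0.61 (adjusted p = 0.0451) and Spib by 1.56 ± 0.32 (adjusted p = 0.0444). All of these calls were lost without HOXA9_KO S5, the highest of the 4 libraries for each, and the groups did not overlap for any. Vpreb1 has a close paralog, and reads may have been split between them. Ebf1, which acts above Pax5, had 5.26 and 0.342 CPM in dKO and 12 and 22.5 CPM in HOXA9_KO and was not called (adjusted p = 0.116). Il7r, the interleukin-7 receptor, had 13.6 and 8.35 CPM in dKO and 4.70 and 9.07 CPM in HOXA9_KO, with overlapping groups.

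Immunoglobulin genes overlapped between the groups in their share of all counts. This share was 8.34% and 3.20% in dKO, against 2.98% and 4.37% in HOXA9_KO. The B cell list summed to 46044 and 20535 CPM in dKO, against 16497 and 24310 CPM in HOXA9_KO with its immunoglobulin genes, and to 985 and 832 CPM in dKO, against 1013 and 1383 CPM in HOXA9_KO without them. dKO S6 thus held the highest immunoglobulin share, and the part of plasma or B cells in any gene list was not tested. With immunoglobulin genes left out before scaling and testing, a choice made after seeing the data, 323 genes were called, 77 higher and 246 lower, and 50 of the 76 mitosis genes were lower.

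Cd34, a sialomucin whose level rises as stem cells become multipotent progenitors in mice, had 260 and 191 CPM in dKO, against 422 and 345 CPM in HOXA9_KO, and fell by 0.76 ± 0.13 (adjusted p = 0.0262). The groups did not overlap, and the call was lost without HOXA9_KO S4 or dKO S7. In Bcat_KO Cd34 was at 743 and 769 CPM, against 766 and 715 CPM in WT. Cd27, a TNF receptor family member of lymphoid-primed progenitors, also fell (-0.49, adjusted p = 0.0172). Flt3, the receptor that marks multipotent progenitors, had 133 and 82.9 CPM in dKO and 162 and 167 CPM in HOXA9_KO and was not called (adjusted p = 0.163). Cd48 had 58.7 and 33.8 CPM in dKO and 74.5 and 89.5 CPM in HOXA9_KO (adjusted p = 0.0743). The list of long-term stem cell genes had a median change of 0.32 with 36 of 42 above 0, and its sum was 3978 and 4934 CPM in dKO, against 3559 and 3291 CPM in HOXA9_KO. Of the 42, edgeR called 1 higher (2.38%, against 0.248% of all tested genes) and 0 lower. At an unadjusted p under 0.05, 11 were higher and 0 lower, and DESeq2 called 6 higher and 0 lower. In 17 both dKO libraries lay above both HOXA9_KO libraries, against 20.5% of all tested genes. Vwf, the von Willebrand factor gene of platelet-biased stem cells, had 532 and 659 CPM in dKO and 353 and 236 CPM in HOXA9_KO but was not called (adjusted p = 0.124).

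Heat shock genes gave the smallest p-values. Hspa1b, an inducible HSP70, had 24 and 14.4 CPM in dKO, against 169 and 175 CPM in HOXA9_KO, and fell by 3.16 ± 0.20 (adjusted p = 0.000128). Its near-identical neighbour Hspa1a had 11 and 7.59 CPM in dKO, against 61.9 and 65.1 CPM in HOXA9_KO, and fell by 2.77 ± 0.20 (adjusted p = 0.000243). How reads were split between these copies is uncertain, but both lay far below HOXA9_KO in both dKO libraries. Hspa1b also differed between the groups without Hoxa9 targeting, at 92.9 and 76.8 CPM in Bcat_KO, against 927 and 773 CPM in WT. The constitutive chaperone Hspa8 had 2407 and 2241 CPM in dKO, against 3050 and 3001 CPM in HOXA9_KO, and fell by 0.38 ± 0.06 (adjusted p = 0.0148). Its HSP40 partner Dnaja1 had 142 and 149 CPM in dKO, against 236 and 195 CPM in HOXA9_KO (-0.56 ± 0.11, adjusted p = 0.039). These were the 4 calls among 27 heat shock and chaperone genes (14.8%, against 1.01% of all tested genes called lower), whose median was -0.15. Of 27 genes of the immediate early and tissue handling response 1 fell, Klf6, with 1669 and 2047 CPM in dKO, against 2419 and 2527 CPM in HOXA9_KO (-0.41 ± 0.09, adjusted p = 0.0473). Fos, named after its values were seen, had 1776 and 1484 CPM in dKO and 1566 and 1858 CPM in HOXA9_KO. Whether handling of the cells contributed to the heat shock values was not tested.

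Among 24 genes of the NF-kB pathway 3 fell (12.5%, against 1.01% of all tested genes), all secreted inflammatory factors. None rose (2 at an unadjusted p under 0.05, 0 with DESeq2), and the median was -0.04. Ccl4, a chemokine, had 18.4 and 11.5 CPM in dKO, against 76.7 and 52.8 CPM in HOXA9_KO, and fell by 2.11 ± 0.21 (adjusted p = 0.00187). Ccl3, its neighbour in the chemokine cluster, had 9.72 and 6.30 CPM in dKO, against 14.8 and 19.7 CPM in HOXA9_KO (-1.11 ± 0.21, adjusted p = 0.0337). The cytokine Tnf had 17.9 and 12.6 CPM in dKO, against 28.8 and 35.9 CPM in HOXA9_KO (-1.09 ± 0.18, adjusted p = 0.0196). The Ccl4 call was kept whichever of the 8 libraries was left out, and those of Ccl3 and Tnf were lost without HOXA9_KO S5 or dKO S7.

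Among the 41 genes that rose, the one with the smallest p was Myl10, a myosin light chain gene. Myl10 had 112 and 122 CPM in dKO, against 23.8 and 33.4 CPM in HOXA9_KO, and rose by 2.04 ± 0.16 (adjusted p = 0.000292), 4.10-fold. In Bcat_KO it was at 111 and 119 CPM, against 75.9 and 63.2 CPM in WT, so the dKO level was close to that of Bcat_KO and HOXA9_KO was the lowest group. Ces2g, a carboxylesterase, had 96.8 and 65.0 CPM in dKO, against 28.9 and 28.5 CPM in HOXA9_KO, and rose by 1.49 ± 0.18 (adjusted p = 0.00687). F2r, the thrombin receptor PAR1, had 357 and 292 CPM in dKO, against 201 and 177 CPM in HOXA9_KO (0.78 ± 0.11, adjusted p = 0.0148). It was the call among 26 megakaryocyte and platelet genes, whose median was 0.36. The 3 genes had both dKO libraries above both HOXA9_KO libraries.

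The other genes that rose belong to different processes. Cish, a SOCS family inhibitor of STAT5 signalling, had 36.5 and 29.6 CPM in dKO, against 18.4 and 17.0 CPM in HOXA9_KO (0.91 ± 0.15, adjusted p = 0.0196). Socs2, its relative, had 20.2 and 31.6 CPM in dKO, against 14.3 and 14.1 CPM in HOXA9_KO (0.87 ± 0.17, adjusted p = 0.039). They were the 2 calls among 25 cytokine feedback genes (8%, against 0.248% of all tested genes called higher, median 0.08). Klf9, a Krüppel-like factor, had 94.1 and 145 CPM in dKO, against 65.5 and 43.2 CPM in HOXA9_KO (1.14 ± 0.23, adjusted p = 0.0417). Nr1d1, the REV-ERBα clock repressor, had 25.9 and 26.2 CPM in dKO, against 11.8 and 13.8 CPM in HOXA9_KO (1.02 ± 0.17, adjusted p = 0.0196). Rora, the activator that competes with it, had 33.2 and 21.8 CPM in dKO, against 12.9 and 10.8 CPM in HOXA9_KO (1.22 ± 0.25, adjusted p = 0.0443). Hmox1, or haem oxygenase, had 6.12 and 7.44 CPM in dKO, against 2.51 and 2.33 CPM in HOXA9_KO (1.49 ± 0.25, adjusted p = 0.0241). Slc3a2, a chain of amino acid transporters, had 421 and 354 CPM in dKO, against 255 and 291 CPM in HOXA9_KO (0.51 ± 0.10, adjusted p = 0.0398). In every one of these the groups did not overlap, and every call was lost without at least HOXA9_KO S5.

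Several genes that rose were nearly silent in HOXA9_KO. Cma1, a mast cell chymase, had 9.45 and 8.12 CPM in dKO, against 0.328 and 0.499 CPM in HOXA9_KO (4.37 ± 0.82, adjusted p = 0.039). Bace2, an aspartic protease, had 7.2 and 8.28 CPM in dKO, against 0.546 and 0.250 CPM in HOXA9_KO (4.29 ± 0.65, adjusted p = 0.0153). Krt83, a hair keratin, had 10.1 and 4.93 CPM in dKO, against 0.109 and 0.749 CPM in HOXA9_KO (4.07 ± 0.82, adjusted p = 0.0473). These HOXA9_KO levels rest on few reads, so the sizes of the folds are uncertain. Rgs7bp, a partner of RGS proteins, had 5.65 and 17.8 CPM in dKO, against 1.31 and 1.25 CPM in HOXA9_KO (3.19 ± 0.49, adjusted p = 0.0153). Sh3gl3, an endophilin, had 4.96 and 9.41 CPM in dKO, against 1.2 and 0.666 CPM in HOXA9_KO (2.95 ± 0.49, adjusted p = 0.0196). The rule also named Mill2 (1.45 ± 0.30), Cpeb2 (1.32 ± 0.27), Als2cl (1.25 ± 0.23) and Fam110c (1.19 ± 0.19), all with the groups apart.

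Other genes also fell steeply. Bcat1, the cytosolic branched-chain aminotransferase, had 0.387 and 0.152 CPM in dKO, against 3.71 and 8.07 CPM in HOXA9_KO (-4.43 ± 0.50, adjusted p = 0.00672). Akap12, an anchor protein for protein kinase A, had 1.86 and 1.22 CPM in dKO, against 7.86 and 13.7 CPM in HOXA9_KO (-2.81 ± 0.33, adjusted p = 0.00687). Both are low in dKO and rest on few reads there, and both calls were kept whichever of the 8 libraries was left out. Pdgfrb, the PDGF receptor β of mesenchymal cells and the 1 gene called among 25 endothelial and stromal genes, had 7.67 and 6.11 CPM in dKO, against 21.6 and 16.7 CPM in HOXA9_KO (-1.48 ± 0.18, adjusted p = 0.00687). The rule further named Cecr2, Drc7 and Cox6a2, each lower in both dKO libraries.

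**Figure D4:**
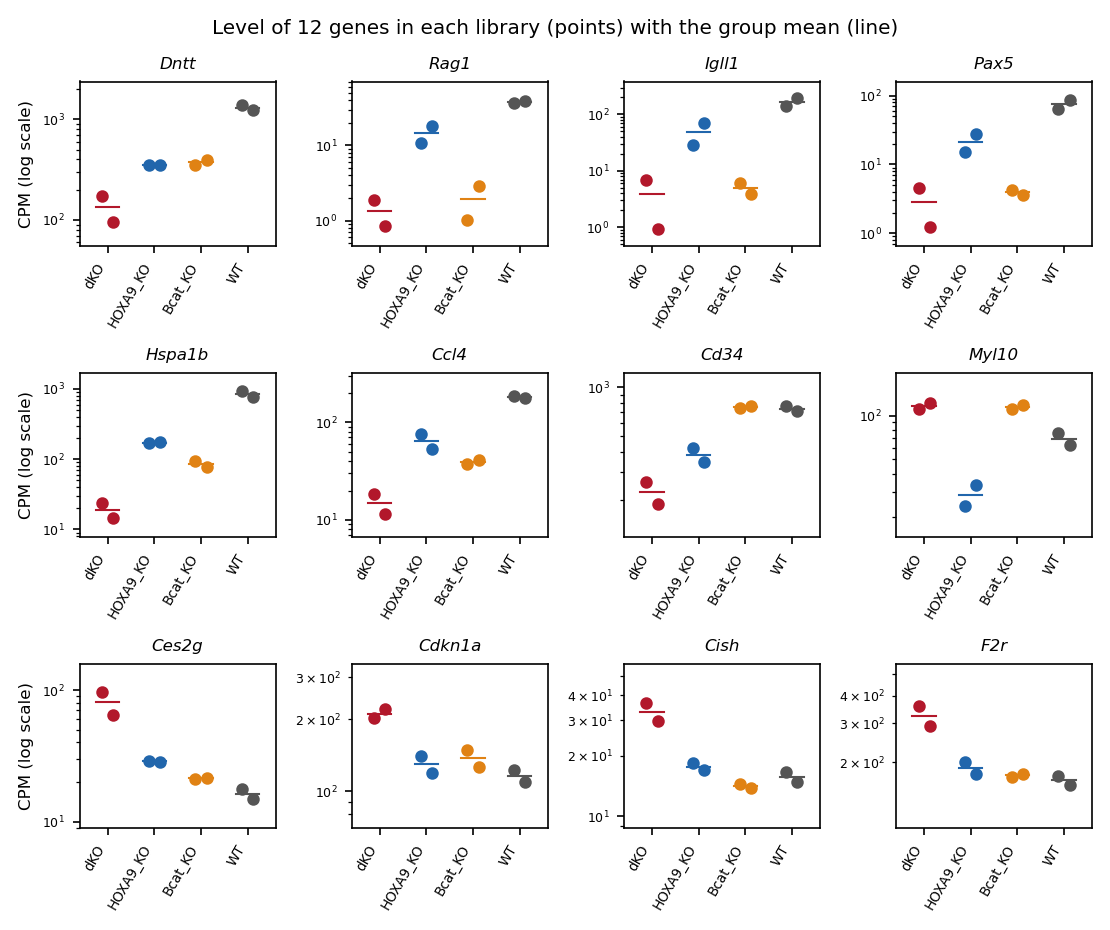
Each panel is a gene, with 1 point per library for dKO, HOXA9_KO, Bcat_KO and WT from left to right and CPM on a log axis; a line marks the group mean. Dntt, Rag1, Igll1, Pax5, Hspa1b, Ccl4 and Cd34 are lower in both dKO libraries than in both HOXA9_KO libraries, and Myl10, Ces2g, Cdkn1a, Cish and F2r are higher.

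Wnt pathway genes held almost no call other than Ctnnb1 itself. Of 24 tested Wnt target genes edgeR called none (4 higher and 6 lower at an unadjusted p under 0.05), DESeq2 called 2 higher and 3 lower, and the median was 0.26. Axin2, the most general target, had 0.426 and 1.22 CPM in dKO and 0.328 and 0.541 CPM in HOXA9_KO (adjusted p = 0.823). Lef1 had 1.01 and 0.228 CPM in dKO and 2.13 and 4.87 CPM in HOXA9_KO (adjusted p = 0.189), and Id2 had 68.6 and 42.2 CPM in dKO and 25.4 and 32.9 CPM in HOXA9_KO (adjusted p = 0.0593). Axin2 was near the detection limit in all 4 libraries, while for Lef1 and Id2 the groups were apart without passing the threshold. Of 25 Wnt ligands and receptors edgeR and DESeq2 called none (4 higher and 1 lower at an unadjusted p under 0.05, median 0.33), and of 18 genes of the destruction complex and its paralog only Ctnnb1 was. Jup, or plakoglobin, the paralog that can stand in for β-catenin at junctions, had 26.9 and 29.8 CPM in dKO and 27.6 and 33.0 CPM in HOXA9_KO (adjusted p = 0.873). Among 21 TCF/LEF factors and nuclear partners the chromatin remodeller Smarca4 fell, with 253 and 272 CPM in dKO, against 348 and 356 CPM in HOXA9_KO (-0.42 ± 0.09, adjusted p = 0.0464), a call that no fit with a library left out kept. Among 12 cadherin junction genes Plekha7 fell.

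Of 16 tested Hoxa and Hoxb genes edgeR and DESeq2 called none (2 higher and 1 lower at an unadjusted p under 0.05, median 0.05). Of 8 tested Hox cofactor genes edgeR called 1 higher (12.5%, against 0.248% of all tested genes) and 0 lower, with a median of 0.14. In 4 both dKO libraries lay above both HOXA9_KO libraries (against 20.5% of all tested genes), and in 1 both lay below (against 20.8%). Meis1, a Hox cofactor, had 125 and 141 CPM in dKO and 144 and 123 CPM in HOXA9_KO and was not called. Of 10 arginine methyltransferase genes, the enzyme family named in the title of the series, edgeR and DESeq2 called none (0 at an unadjusted p under 0.05, median -0.14). Prmt1 had 255 and 260 CPM in dKO and 272 and 272 CPM in HOXA9_KO (-0.08 ± 0.07, adjusted p = 0.707). Ribosomal protein genes had 0 edgeR and 0 DESeq2 calls of 77 (19 higher and 1 lower at an unadjusted p under 0.05) and a median of 0.13. Oxidative phosphorylation genes had 0 calls of 74 with either tool (1 higher and 1 lower at an unadjusted p under 0.05) and a median of 0.02. Type I interferon genes had 0 edgeR calls of 45, 1 higher and 1 lower both with DESeq2 and at an unadjusted p under 0.05, and a median of 0.10.

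Markers of mature cells held few calls and varied between libraries of a group. Of 23 neutrophil granule genes edgeR called none (8 higher and 0 lower at an unadjusted p under 0.05) and DESeq2 called 2 higher. Their median was 1.63, and in 20 both dKO libraries lay above both HOXA9_KO libraries, against 20.5% of all tested genes. Their sum was 3328 and 2366 CPM in dKO, against 545 and 1857 CPM in HOXA9_KO, with HOXA9_KO S4 far below the other 3 libraries. S100a8, an abundant neutrophil protein, had 441 and 260 CPM in dKO and 13.1 and 215 CPM in HOXA9_KO (adjusted p = 0.534). Mast cell and basophil genes summed to 682 and 724 CPM in dKO, against 653 and 539 CPM in HOXA9_KO. These sums include Kit, at 359 and 414 CPM in dKO and 461 and 354 CPM in HOXA9_KO. Cma1 was the call among 18, and the list's median was 0.94. At an unadjusted p under 0.05, 6 were higher and 0 lower, and DESeq2 called 3 higher and 0 lower. Monocyte, macrophage and dendritic cell genes summed to 4085 and 1750 CPM in dKO and 1514 and 2482 CPM in HOXA9_KO, with overlapping groups, and Spib was the 1 call among 29 (median 0.13). Erythroid genes had 0 edgeR calls of 28 (8 higher and 0 lower at an unadjusted p under 0.05, 1 higher with DESeq2) and a median of 0.53. Among 30 myeloid progenitor genes Myb and Cbfb fell, and among 35 T, NK and innate lymphoid genes Rora rose. Whether a different share of mature cells contributed to the calls was not tested.

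The step of dKO against HOXA9_KO was set beside the same step with Hoxa9 present, Bcat_KO against WT, which shares no library with it. Bcat_KO against WT had 1115 autosomal genes called higher (6.76%) and 1473 lower (8.93%), 15.7% in all. The difference between the steps was called for 1162 genes (7.04%), 657 with a more positive step in the Hoxa9-targeted pair (3.98%) and 505 with a more negative one (3.06%). Scaled by library totals alone the split was 545 and 689. Of the 167 genes lower in dKO, 43 were also lower in Bcat_KO against WT (25.8%) and 9 were higher, and the difference between steps was called for 67 (40.1%), 65 of them more negative in the Hoxa9-targeted pair. Of the 41 genes higher in dKO, 10 were also higher in Bcat_KO (24.4%) and 4 were lower, and the difference was called for 22 (53.7%), 21 of them more positive. The dKO values enter both the choice of these genes and the difference, so these shares are a description.

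The WT and Bcat_KO libraries stood apart in genes outside the targeted pathway. Xist, the RNA of the inactive X, had 11.8 and 22.9 CPM in Bcat_KO and 184 and 166 CPM in WT, against 0.598 and 0.429 CPM in dKO and 0 and 0.579 CPM in HOXA9_KO. Ddx3y, a Y-linked gene, had 65.5 and 63.4 CPM in Bcat_KO and 1.91 and 2.92 CPM in WT, against 62.7 and 71.7 CPM in dKO and 64.0 and 65.9 CPM in HOXA9_KO. dKO and HOXA9_KO were thus alike in these genes, and Bcat_KO and WT were not. Receptor genes of the olfactory and vomeronasal families summed to 15.9 and 11.7 CPM in Bcat_KO and 183 and 139 CPM in WT, against 88.1 and 88.6 CPM in dKO and 88.0 and 63.0 CPM in HOXA9_KO. Genes with a count above 0 numbered 17917 and 17540 in Bcat_KO and 26929 and 26325 in WT. They numbered 25120 and 24029 in dKO and 22560 and 22865 in HOXA9_KO. In the comparison of Bcat_KO with WT, the sex of the cells, this number of genes and the genotype cannot be told apart. This carries into each difference between steps.

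For part of the mitosis genes the steps differed. Of the 76 genes, 1 was called higher in Bcat_KO against WT (1.32%, against 6.76% of all tested genes). In that comparison 0 were called lower (against 8.93%), and the median was -0.09. The difference between steps was called for 24 (31.6%, against 3.06%), all more negative in the Hoxa9-targeted pair. Its median over the 76 was -0.76, and the limits given above for Bcat_KO against WT hold for it too. The sum of the 76 genes was 4522 and 4343 CPM in Bcat_KO and 4608 and 4938 CPM in WT. By group means the median gene stood at 22.8 CPM in dKO, 43.2 in HOXA9_KO, 49.8 in Bcat_KO and 49.9 in WT, so dKO was the lowest of these 4 groups. A low sum was not particular to dKO in the series, since it was 2668 and 2531 CPM in PRMT1_KO, against 5224 and 5337 CPM in WT_PRMT1. Cenpf had 55.6 and 62.6 CPM in Bcat_KO, against 40.5 and 41.4 CPM in WT, and its difference between steps was -2.06. Kif11 had 146 and 131 CPM in Bcat_KO, against 142 and 138 CPM in WT, with a difference of -1.05. Cd34 differed by -0.79 and Dnmt1 by -1.19. Pdgfrb had 34.7 and 27.7 CPM in Bcat_KO, against 17.6 and 17.9 CPM in WT, and its difference was -2.29 (adjusted p = 0.000946).

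The lymphoid genes Rag1, Dntt and Arpp21 fell in both steps. Rag1 had 1.02 and 2.88 CPM in Bcat_KO, against 36.5 and 39.1 CPM in WT. Dntt had 353 and 396 CPM in Bcat_KO, against 1381 and 1232 CPM in WT. Arpp21 had 4.38 and 5.33 CPM in Bcat_KO, against 24.4 and 27.5 CPM in WT. For these genes each β-catenin-targeted library was below each library of its own comparison group. Of the 62 progenitor and B cell genes, 30 were called lower in Bcat_KO against WT (48.4%, against 8.93% of all tested genes). In the same comparison 3 were called higher (4.84%, against 6.76%). The difference between steps was called for 13 of the 62. It was more positive in the Hoxa9-targeted pair for 9 (14.5%, against 3.98% of all tested genes) and more negative for 4 (6.45%, against 3.06%). For several genes higher in dKO the steps differed, with Myl10 at a difference of 1.31, Ces2g at 1.09, Cish at 1.06 and F2r at 0.71. Cish, for example, had 14.5 and 13.8 CPM in Bcat_KO, against 16.6 and 14.9 CPM in WT.

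**Figure D5:**
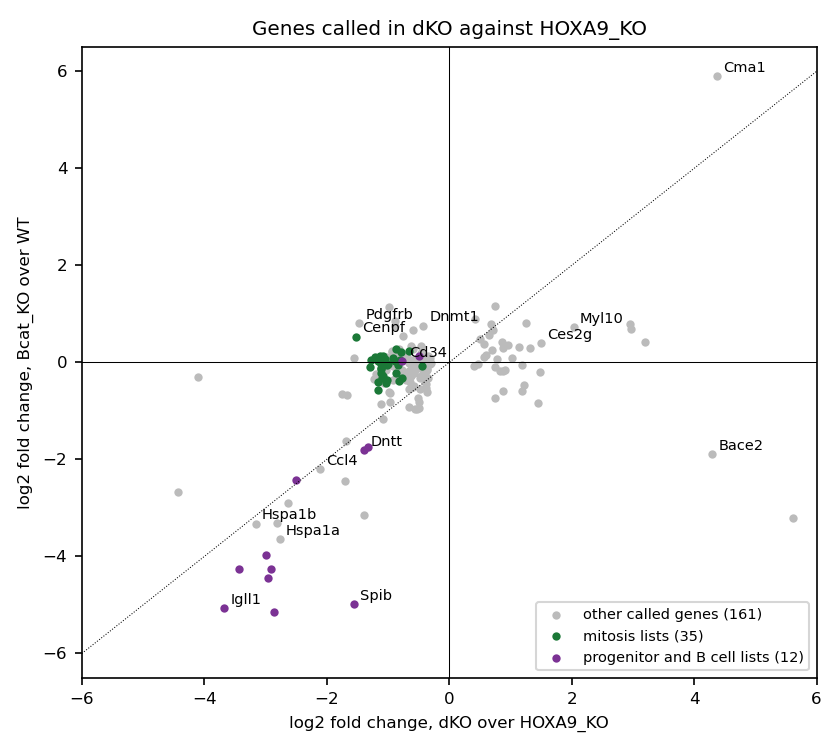
Each point is a called autosomal gene, with its log2 change in dKO over HOXA9_KO on the horizontal axis and in Bcat_KO over WT on the vertical axis, coloured by list; 204 of 208 genes lie within the axes and the dotted line marks equal changes. The 35 mitosis genes lie near 0 on the vertical axis, and most of the 12 progenitor and B cell genes lie below 0 on both.

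Called genes were spread over the autosomes. The share called ran between 0.567% on chromosome 12 and 1.93% on chromosome 19. Within 5 Mb of Ctnnb1 96 genes were tested and 1 was called, Kif15, a spindle kinesin of the mitosis list (1.04%). Protein-coding genes made up 36 of the 41 higher genes and 163 of the 167 lower genes, against 82.5% of tested genes, and genes that fell had a median level of 60.9 CPM, against 12.7 CPM over all tested genes.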

How the data were processed

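RNA-seq counts per gene were made by the authors and deposited as a table of whole-number counts. The submitters' processing notes name Trim Galore 0.6.6 for trimming, STAR 2.7.6a for alignment to GRCm38 (mm10) and featureCounts for counting. Not given in the sources used here are the annotation release and the strand setting, so reads of a gene and of an overlapping antisense gene may not be told apart. Per the labels' protocols, RNA was isolated with RNeasy Plus Micro and libraries were made with NEB Ultra II Directional. Even counts were 67.1 to 75.9% of nonzero values, which points to both mates of a pair being counted. No value column of the 12 was left out. Gene positions were taken from GENCODE M21 by identifier for 55230 of 55471 genes; the 241 others held 0.0044% of the counts. Column names carry the group and an S tag, and control in a column name was taken as WT.

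Counts were fitted with edgeR 4.0.16 (R 4.3.3) on all 12 libraries with a mean per group and 6 residual degrees of freedom, after filterByExpr at a minimum count of 10 and TMM scaling. P-values were Benjamini-Hochberg adjusted over all 17063 genes tested, a call is an adjusted p under 0.05, and SE was computed as the size of the log2 change over the square root of its F. With both mates counted, fewer fragments than counts stand behind each value. The analysis was first tested on simulated data with 200 changed genes. For dKO against HOXA9_KO it recovered 0% of changes of log2 0.5, 35% of log2 1 and 56.5% of log2 2. For the difference between steps it recovered 0%, 1.5% and 50%. A gene that was not called may therefore still have changed. Gene lists (53) were described by counts and medians, with no set test. The members, lists and motifs were chosen with earlier results of these data known. Genes were named by a rule: Ctnnb1 and Hoxa9; the 15 largest changes per direction among called protein-coding genes with a given symbol, a mean of 2 CPM or more in the 4 libraries and groups that do not overlap; up to 4 called members per list with the smallest p; and the 6 largest differences per direction between dKO minus HOXA9_KO and Bcat_KO minus WT. Alternatives were RLE size factors, library totals, TMM computed with mitochondrial and haemoglobin genes removed, no filter, a mean of at least 5 CPM, fits of 8 or 4 libraries, DESeq2 1.42.0, limma-voom (limma 3.58.1) with quality weights, halved counts and leaving out each library in turn; leaving out immunoglobulin genes was added after seeing the data. A few genes that the rule or a list would name are not reported here. Promoters were read from RefSeq windows. Tables and figures were made with Python 3.11.15, pandas 2.3.3 and matplotlib 3.10.9.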

Additional observations from a re-analysis of the deposited data

Results flagged for a closer look

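For the named genes given here, the change in dKO against HOXA9_KO differed from the change in Bcat_KO against WT by edgeR's test of the difference between steps (adjusted p of each under 0.05). The value given for each is that difference on the log2 scale, positive where the step was more positive in the Hoxa9-targeted pair. The steps share no library. Bcat_KO and WT differ in Xist, in Y-linked genes and in the number of genes with a count. The genotype cannot be told apart from these in that pair.

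Genes of mitosis and chromosome structure were more negative in the Hoxa9-targeted pair: Cenpf (-2.06), Incenp (-1.14), Top2a (-1.06), Kif11 (-1.05), Ckap2 (-0.97), Cdk1 (-0.86), Ncapd2 (-0.84), Ncaph (-0.84), Bub1b (-0.78) and Foxm1 (-0.66). Replication, chromatin and splicing genes were too: Dnmt1 (-1.19), Chaf1a (-0.67), Pole (-0.60), Srsf10 (-0.60), Srsf7 (-0.48) and Pold1 (-0.47). Cd34 (-0.79), Myb (-0.88), Plekha7 (-1.74) and Pdgfrb (-2.29) also were. Spib (3.42) fell in both steps and by less in the Hoxa9-targeted pair.

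Genes that rose in dKO and whose step was more positive in the Hoxa9-targeted pair were Bace2 (6.18), Rgs7bp (2.77), Mill2 (2.29), Fam110c (1.79), Rora (1.69), Hmox1 (1.68), Myl10 (1.31), Ces2g (1.09), Cish (1.06), Nr1d1 (0.94) and F2r (0.71).

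The largest positive differences among the named genes were Ltf (16.43), Mmp9 (14.13), Retnlg (13.64), Fpr2 (11.76), Krt83 (11.11) and Cntn1 (11.07). Both Bcat_KO libraries are at 0 for these 6 genes, so the fitted sizes depend on the prior count and are no bounds. Ltf, a neutrophil granule protein, had 268 and 189 CPM in dKO and 8.85 and 120 CPM in HOXA9_KO, against 0 and 0 CPM in Bcat_KO and 209 and 52.1 CPM in WT. Beside Pdgfrb, the largest negative differences among them were Ptprf (-3.13), Psme2b (-2.77), Zg16 (-2.70), Rps27rt (-2.49) and Tet2 (-2.34). Psme2b and Rps27rt are copies of other genes, and their reads may be split or shared. Tet2, a dioxygenase that oxidises methylated cytosine, had 7.16 and 8.20 CPM in dKO and 7.70 and 6.24 CPM in HOXA9_KO, against 19.95 and 24.04 CPM in Bcat_KO and 5.23 and 2.68 CPM in WT, so its difference comes from the pair with Hoxa9 present.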

How the results depend on the processing

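No paired analysis was possible because the table's columns carry S tags and not the replicate numbers of the labels. Calls in dKO against HOXA9_KO (208) numbered 183 to 267 with RLE, library totals, scaling without mitochondrial and haemoglobin genes, the filter at 5 CPM, limma-voom and halved counts. They numbered 808 with no filter, 604 with DESeq2, 323 without immunoglobulin genes (added after seeing the data), 8 in the fit of 8 libraries and 0 in that of 4, and 64 to 355 with a library left out. Every fit with fewer libraries, also one with a single library left out, has fewer residual degrees of freedom by construction. How far this accounts for the changed numbers of calls was not tested.

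The difference between steps (1162) gave 1928 with no filter, 2095 with DESeq2, 722 with limma-voom, 465 in the fit of 8 libraries and 351 to 945 with a library left out. Bcat_KO against WT (2588) gave 1707 in the fit of 8 libraries and 957 to 2623 with a library left out. Mitosis members called lower (35) numbered 60 with no filter, 58 with DESeq2, 0 in the fits of 8 and of 4 libraries, and 8 to 58 with a library left out. Progenitor and B cell members called lower (12) numbered 29 with no filter, 1 in the fit of 8 libraries, 0 in that of 4, and 5 to 23 with a library left out.

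Of the 90 named genes, 89 kept their sign under every alternative, and Hoxa9, which was not called, changed sign in 1. All 90 kept their side of the threshold with DESeq2, with no filter and with halved counts; 6 lost their call with RLE, 4 with library totals, 27 with limma-voom, 74 in the fit of 8 libraries and 79 in that of 4. Depth limits genes of a few CPM most, where the folds named for Cma1, Bace2, Krt83 and Bcat1 rest on few reads.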

Other observations

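The genes described here were chosen after their values were seen. Among the 83 genes lower in dKO that belong to no list were 2 tubulins, a lamin and a chromatin protein. Tubb5, a β-tubulin, had 1180 and 940 CPM in dKO, against 1427 and 1667 CPM in HOXA9_KO (-0.55 ± 0.10, edgeR adjusted p = 0.0337), and Tuba1b, an α-tubulin, had 457 and 386 CPM in dKO, against 608 and 663 CPM in HOXA9_KO (-0.59 ± 0.09, edgeR adjusted p = 0.0148). Tubulins form a family of close copies, so reads may be shared between them. Lmnb1, a lamin of the nuclear envelope, had 293 and 230 CPM in dKO, against 395 and 451 CPM in HOXA9_KO (-0.69 ± 0.11, edgeR adjusted p = 0.0193). Hmgb2, a chromatin protein, had 443 and 320 CPM in dKO, against 565 and 687 CPM in HOXA9_KO (-0.71 ± 0.13, edgeR adjusted p = 0.0352). None of these 4 genes had overlapping groups.

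Of 18 clock genes tested 3 were called, all higher, against 0.248% of all tested genes called higher. They were Nr1d1, Rora and Bhlhe40, and members not called changed in both directions. Bhlhe40, a repressor of the clock, had 444 and 514 CPM in dKO, against 299 and 224 CPM in HOXA9_KO (0.87 ± 0.18, edgeR adjusted p = 0.0449). Not given in the sources used here is the hour at which cells were taken. Cirbp, an RNA-binding protein induced by cold, had 137 and 152 CPM in dKO, against 90.2 and 94.6 CPM in HOXA9_KO (0.65 ± 0.08, edgeR adjusted p = 0.00764). Klf13 had 195 and 224 CPM in dKO, against 119 and 95.8 CPM in HOXA9_KO (0.96 ± 0.17, edgeR adjusted p = 0.0262).

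Single immunoglobulin segments were high in some libraries and absent from others. Igkv1-122 had 37.2 and 57.2 CPM in dKO, against 0 and 0.250 CPM in HOXA9_KO, and Ighv5-4 had 0.697 and 0.152 CPM in dKO, against 57.1 and 88.6 CPM in HOXA9_KO. Among heavy-chain variable segments, the leading one was Ighv8-8 in dKO S6 (32.7% of their counts) and Ighv11-2 in dKO S7 (14.1%), against Ighv11-2 in HOXA9_KO S4 (20.1%) and Ighv1-76 in HOXA9_KO S5 (28.0%). Igkc had 19098 and 7357 CPM in dKO and 6406 and 9017 CPM in HOXA9_KO and was not called (edgeR adjusted p = 0.444). Outside the autosomes, 4 X-linked genes were called, all lower in dKO: Rbm10, Pdzd4, Kif4 and Ercc6l, of which Kif4 and Ercc6l act in mitosis.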
